A study of Homo sapiens with 12 samples.

Results

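The 54 genes described here encode the machinery that fires replication origins and runs the replication fork. They were taken by symbol from a list made by function, which uses no measured value but was drawn up with earlier results of these data known, and all 54 were found among the 60675 genes of the count tables. In the list, 9 genes license origins, 7 belong to the MCM helicase family, 9 activate the helicase, 9 encode polymerase or primase subunits, 10 encode the sliding clamp, its loaders and lagging-strand enzymes, 3 encode RPA, 4 protect the fork, and 3 are E2F1, E2F2 and the S-phase gene FAM111B. All 54 passed the filter on low counts in every comparison.

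Before S phase, the origin recognition complex (ORC), CDC6 and CDT1 load rings of MCM2 to MCM7 onto origins, which is called licensing. The kinases CDC7-DBF4 and CDK2 then turn each ring into an active helicase by adding CDC45 and the GINS complex, with MCM10 and RECQL4 among the factors needed. At the fork, primase and polymerase alpha start each strand, the clamp PCNA is loaded by the RFC complex and holds polymerases delta and epsilon, RPA coats single-stranded DNA, and FEN1 and LIG1 join the lagging-strand pieces. Transcription of many of these genes is switched on in late G1 by the E2F factors, E2F1 and E2F2 among them, and in the prostate epithelium they mark dividing cells.

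RNA was sequenced from 2 human prostate cancer lines in 12 libraries, 2 per group. All groups received the synthetic androgen R1881 (1 nM) for 72 h in medium with charcoal-stripped serum. LNCaP:C4-2 cells, a castration-resistant derivative of LNCaP below called C4-2, were given R1881 alone, R1881 with namoline (50 µM, an inhibitor of the lysine demethylase KDM1A), R1881 with TCE-5002 (an inhibitor of the lysine demethylase KDM7A), or R1881 with both. LNCaP cells were given R1881 alone or R1881 with both inhibitors. These treatments are those of the sample titles. The treatment protocol in the labels describes siRNA against KDM1A and KDM7A and names no inhibitor, a mismatch that was not resolved here. The series text gives TCE-5002 at 100 µM, and a lower concentration stands in the methods of the study, so its dose is uncertain. Besides KDM7A, the study names KDM7B (PHF8) and KDM2A as targets of TCE-5002. The study counts the libraries of a group as biological replicates.

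A pair of points on the libraries bears on the results. The file of replicate 1 of the LNCaP combination group carries a header that names its alignment for namoline alone. Its label and file name give both inhibitors. For the effect of the combination in that line, the counts, the median and most named changes are therefore also given without this library. The libraries labelled LNCaP with R1881 alone also stood apart from the C4-2 libraries with R1881 alone in their lineage markers. Over 8 epithelial markers the summed level was 237 and 242 CPM (counts scaled to a common library size) against 2289 and 2428. Over 8 prostate luminal markers it was 831 and 753 against 2392 and 2453. Of these 8 luminal markers, 7 were lower and 1, KLK3, was higher (397 and 355 CPM against 206 and 228). Over 10 mesenchymal and stromal markers the summed level was 705 and 800 against 80.7 and 82.4, mostly from VIM (641 and 733 CPM against 2.6 and 2.3). Of the 5 genes of this last list that were tested, 3 were higher and 2 lower. COL1A1 was among the lower (4.9 and 4.0 CPM against 49.5 and 50.85). The label is therefore used here without a claim on what the cells are. No library held a leukocyte and endothelial marker sum (8 genes) above 9.33 CPM. Total counts ran from 14791602 to 20690819 per library, and every replicate pair differed by more than counting noise (chi-square per gene from 3.61 to 27.9, the highest between the TCE-5002 libraries). The lowest count of a member in a single library was 4 (FAM111B), then 23 (E2F2), so their lowest levels are the least precise.

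Promoters of these genes are shown first, because E2F is the regulator most closely tied to them and because MCM10 and POLE, which with namoline rose most and fell furthest among the 54, differ in the letters their promoters hold. Each window runs from 250 bases before to 50 bases after an annotated start, on the gene's own strand (RefSeq, GRCh38.p14). Capitals mark E2F octamers (TTTCCCGC, TTTCGCGC, TTTGCCGC or TTTGGCGC, either strand) and the CCAAT box (CCAAT, either strand), and overlapping matches run together. The windows are chr20:33686336-33686635 for E2F1 (minus strand), chr2:135876394-135876693 for MCM6 (minus), chr17:40287629-40287928 for CDC6 (plus), chr12:132687293-132687592 for POLE (minus) and chr10:13161308-13161607 for MCM10 (plus).
E2F1: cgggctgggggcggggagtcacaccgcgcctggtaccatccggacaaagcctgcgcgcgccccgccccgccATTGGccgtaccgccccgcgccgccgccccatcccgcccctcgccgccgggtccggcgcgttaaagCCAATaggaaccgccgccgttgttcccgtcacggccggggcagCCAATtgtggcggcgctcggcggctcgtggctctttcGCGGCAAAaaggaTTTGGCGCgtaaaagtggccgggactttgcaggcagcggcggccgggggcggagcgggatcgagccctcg
MCM6: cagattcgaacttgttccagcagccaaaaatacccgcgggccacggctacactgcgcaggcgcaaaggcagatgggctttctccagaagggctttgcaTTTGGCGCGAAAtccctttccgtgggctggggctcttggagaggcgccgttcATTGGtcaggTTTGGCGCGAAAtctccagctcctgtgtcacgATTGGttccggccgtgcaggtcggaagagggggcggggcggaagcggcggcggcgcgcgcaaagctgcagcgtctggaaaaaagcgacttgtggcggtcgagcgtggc
CDC6: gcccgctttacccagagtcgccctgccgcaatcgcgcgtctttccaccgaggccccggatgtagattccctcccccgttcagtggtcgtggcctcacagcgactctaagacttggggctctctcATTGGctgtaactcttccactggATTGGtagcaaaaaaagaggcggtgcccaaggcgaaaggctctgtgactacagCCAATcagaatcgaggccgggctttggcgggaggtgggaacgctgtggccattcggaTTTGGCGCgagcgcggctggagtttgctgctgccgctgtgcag
POLE: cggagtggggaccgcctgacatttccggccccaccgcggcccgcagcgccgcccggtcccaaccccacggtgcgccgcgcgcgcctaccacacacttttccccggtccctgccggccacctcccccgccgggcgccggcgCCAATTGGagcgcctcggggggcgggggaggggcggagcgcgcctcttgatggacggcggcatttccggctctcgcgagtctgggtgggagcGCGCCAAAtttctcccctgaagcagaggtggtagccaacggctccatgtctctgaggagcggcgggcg
MCM10: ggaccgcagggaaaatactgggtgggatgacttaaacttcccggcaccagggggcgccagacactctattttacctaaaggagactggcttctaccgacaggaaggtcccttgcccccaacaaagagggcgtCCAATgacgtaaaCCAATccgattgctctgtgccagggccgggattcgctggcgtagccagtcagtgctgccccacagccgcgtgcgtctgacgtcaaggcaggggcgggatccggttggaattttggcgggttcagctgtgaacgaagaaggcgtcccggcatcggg

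E2F1 held 2 octamers, whose first bases lay at positions -33 and -20 from the start, and MCM6 held 4, in 2 overlapping pairs that began at -152 and -90. CDC6 held 1 at position 8, and POLE held 1 at -18. MCM10 held none of the octamers searched, and had 2 CCAAT boxes. Its window does hold TTTGGCGG, as does that of CDC6, which differs from TTTGGCGC in the last letter only and was not searched for. Of the 54 genes, 45 had 1 or more windows in the table, 56 windows in all, and 24 of the 56 (42.9%) held an E2F octamer, against 3.31% of 35116 promoters of the same length. The share was 71.4% in the windows of the MCM helicase genes (5 of 7 windows), 16.0% among 50 windows of other replication genes, and 12.9% among 31 windows of G2/M and mitosis genes. MCM7 had more than 1 window, and MCM4 and MCM5 had none. Every MCM helicase gene with a window held an octamer in at least 1 of its windows. CCAAT stood in 55.4% of the members' windows, 34.6% of all promoters and 77.4% of the G2/M windows. A match is a description of the letters in the window and shows no binding.

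Summed over the 54 genes, the C4-2 libraries held 1824 and 1765 CPM with R1881 alone, 3530 and 4125 with namoline, 2589 and 2405 with TCE-5002, and 2249 and 2174 with the combination. The highest sums were in the namoline libraries, and no library of an inhibitor group fell into the range of R1881 alone. The libraries labelled LNCaP stood above all C4-2 libraries, at 6115 and 6250 CPM with R1881 alone and at 7591 and 7652 with the combination. In bulk RNA, more cells in S phase and more of these transcripts per cell cannot be told apart.

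**Figure D1:**
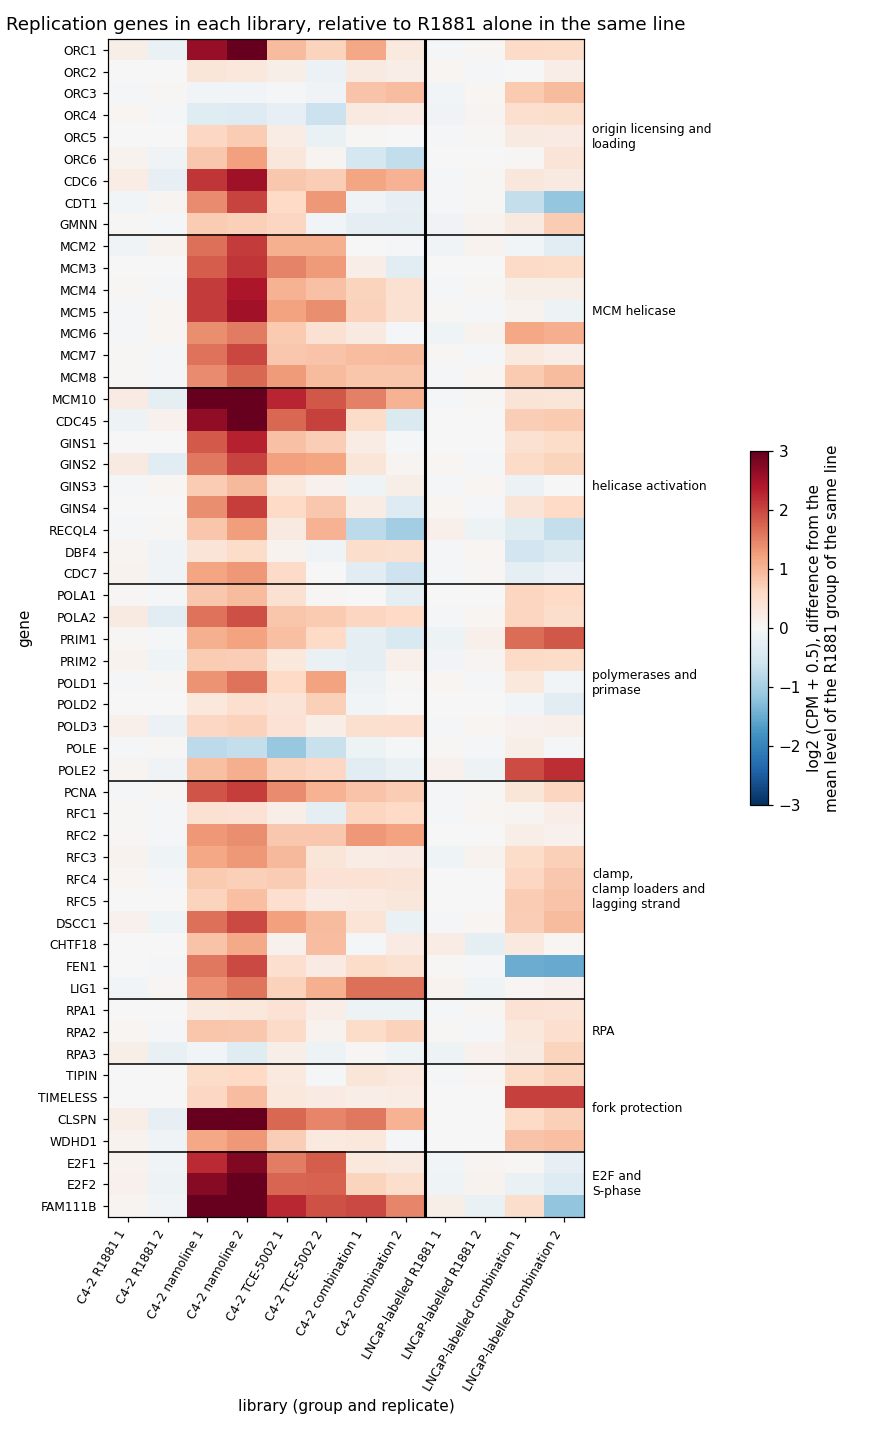
Level of each of the 54 genes in each of the 12 libraries, as log2 (CPM + 0.5) minus the mean level with R1881 alone in the same line; rows are genes by role, columns are libraries, and colours saturate at a difference of 3. The namoline columns were the reddest across most roles, while ORC4 and POLE were paler or blue there, and the C4-2 combination columns were close to white for many genes that were red in both single-inhibitor groups.

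Namoline raised the replication genes of C4-2 cells as a group. Of the 54, 49 rose and 2 fell at adjusted p under 0.05 (edgeR quasi-likelihood test, Benjamini-Hochberg over 17702 genes), where 18.7% of all genes tested rose and 16.3% fell. The median log2 fold change was 1.25 over the 54 and -0.004 over all genes, and 33 of the 54 rose at least 2-fold, where 5.17% of all genes did. Both namoline libraries stood above both R1881 libraries for 50 genes and below for 3, where 37.2% and 35.5% of all genes did so. All 7 MCM helicase genes, all 9 helicase activation genes, all 10 clamp and lagging-strand genes and all 4 fork protection genes rose. The members that did not pass the test were ORC2 (log2 fold change 0.33), ORC3 (-0.10) and RPA3 (-0.24).

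The largest rises with namoline were in genes that were scarce with R1881 alone. MCM10, which helps the loaded helicase to start unwinding, stood at 4.41 and 2.86 CPM with R1881 alone and at 47.3 and 59.0 with namoline. Its log2 fold change was 3.82 ± 0.24 (SE, n = 2 per group, adjusted p = 5.53e-08), or 14.2-fold. FAM111B, a protease gene transcribed in S phase, went from 10.2 and 8.97 CPM to 112.6 and 117 (3.56 ± 0.18, adjusted p = 1.48e-08). CLSPN, the claspin adaptor of the replication checkpoint, went from 5.67 and 4.03 CPM to 48.1 and 56.1 (3.39 ± 0.21, adjusted p = 5.92e-08). For each of these 3 genes, the namoline libraries lay far above the control pair, with no overlap.

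POLE, the catalytic subunit of the leading-strand polymerase epsilon, moved the other way. It stood at 146 and 152 CPM with R1881 alone and at 86.1 and 90.1 with namoline, a log2 fold change of -0.77 ± 0.13 (adjusted p = 0.000514). Its partner POLE2, the second subunit of the same enzyme, rose by 1.04 ± 0.18 (adjusted p = 0.000438), so the subunits of 1 enzyme changed in opposite directions. ORC4, an ATPase subunit of the origin recognition complex, fell from 65.6 and 60.9 CPM to 48.7 and 48.0 (-0.40 ± 0.13, adjusted p = 0.0299). The ORC4 call was lost when either R1881 library, either namoline library or either combination library was left out, with adjusted p from 0.0543 to 0.228, and without R1881 replicate 1 only POLE was left as falling, a count of 1.

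TCE-5002 alone also raised replication genes in C4-2 cells, with smaller changes. Of the 54, 35 rose and 2 fell, where 19.9% of all genes tested rose and 16.7% fell (edgeR). The median log2 fold change was 0.70 and 14 genes rose at least 2-fold, where 5.04% of all genes did. Both TCE-5002 libraries stood above both R1881 libraries for 41 genes and below for 2, where 32.1% and 32.9% of all genes did so. All 7 MCM helicase genes rose again, by 0.65 (MCM6) to 1.40 (MCM3) on the log2 scale, while 3 of the 9 licensing genes did (CDC6, CDT1 and ORC1).

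MCM10, FAM111B and CDC45 rose most with TCE-5002. MCM10 reached 19.7 and 14.6 CPM (log2 fold change 2.21 ± 0.24, adjusted p = 1.21e-05) and FAM111B 48.2 and 37.8 (2.16 ± 0.18, adjusted p = 1.46e-06). CDC45, the helicase co-factor whose recruitment marks origin firing, went from 3.94 and 4.94 CPM to 15.7 and 19.9 (2.02 ± 0.27, adjusted p = 6.8e-05). POLE fell to 67.6 and 92.9 CPM (-0.89 ± 0.13, adjusted p = 0.000176), and ORC4 to 53.6 and 40.3 (-0.43 ± 0.13, adjusted p = 0.0208). POLE was lower in both TCE-5002 libraries than in either R1881 library, and so was ORC4, whose call was lost in a fit of the 4 libraries compared (adjusted p = 0.0694) and without R1881 replicate 1 (0.181), R1881 replicate 2 (0.0617), TCE-5002 replicate 2 (0.0834) or combination replicate 2 (0.0521). The count of 2 members that fell with TCE-5002 was 1 without R1881 replicate 1 and 3 without TCE-5002 replicate 1.

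The TCE-5002 libraries differed from each other by base composition. Over the 54 genes, the difference of replicate 1 and replicate 2 (log2) had a rank correlation of -0.78 with transcript GC content, a description over 54 points that share the same 2 libraries, and it was -0.54 between the namoline libraries and 0.54 between the LNCaP combination libraries. CDT1, whose transcript has 64.9% GC, stood at 19.9 and 32.6 CPM in the TCE-5002 pair, and GMNN, with 43.6%, at 29.2 and 17.6. With an offset for GC content, 40 of the 54 rose and 2 fell with TCE-5002. The part of this difference in the single-gene values was not tested.

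With both inhibitors together, most of the rise seen with each alone was not there in C4-2 cells. Of the 54, 21 rose and 4 fell, where 24.8% of all genes rose and 25.6% fell (edgeR), so the share of members that rose was 38.9% and the share that fell was 7.41%. The median log2 fold change was 0.21, and 6 genes rose at least 2-fold, where 8.87% of all genes did. The count of rises was 13 without replicate 1 of the combination group, and the count of falls was 1 without replicate 1 of R1881 alone. Both combination libraries stood above both R1881 libraries for 28 genes and below for 10, where 40.3% and 40.7% of all genes did so.

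FAM111B, LIG1 and CLSPN rose most with the combination. LIG1, the ligase that seals lagging-strand pieces, stood at 7.73 and 8.58 CPM with R1881 alone, 21.8 and 25.7 with namoline, 13.4 and 17.5 with TCE-5002, and 26.5 and 26.7 with the combination (1.69 ± 0.17 against R1881, adjusted p = 2.15e-06). With ORC3, ORC4 and RFC1, it was among the members whose combination libraries were the highest of all C4-2 libraries. FAM111B stood at 39.1 and 27.3 CPM (1.76 ± 0.18, adjusted p = 2.96e-06) and CLSPN at 15.4 and 10.5 (1.38 ± 0.22, adjusted p = 0.000143). Both lay above the R1881 pair and below the namoline pair.

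RECQL4, ORC6 and CDC7 fell most with the combination. RECQL4, a helicase needed to build the active complex, stood at 23.4 and 24.6 CPM with R1881 alone, 43.4 and 58.1 with namoline, 28.9 and 49.6 with TCE-5002, and 13.6 and 11.3 with the combination (-0.96 ± 0.22, adjusted p = 0.00255). ORC6, the smallest ORC subunit, went from 14.6 and 12.5 CPM to 9.20 and 7.89 (-0.70 ± 0.19, adjusted p = 0.00628), after 24.3 and 32.3 with namoline. CDC7, the catalytic subunit of the kinase that fires origins, went from 16.6 and 14.4 CPM to 12.1 and 9.89 (-0.53 ± 0.19, adjusted p = 0.0332). In all 3 genes the combination pair lay below the R1881 pair. The ORC6 and CDC7 calls were lost without R1881 replicate 1 (adjusted p = 0.0722 and 0.206) or combination replicate 2 (0.0815 and 0.26), and CDC7 also with DESeq2 (0.0508). PRIM1 was the other gene that fell (-0.41 ± 0.16, adjusted p = 0.0449), a call lost with DESeq2 (0.103) and with RLE scaling (0.0673).

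**Figure D2:**
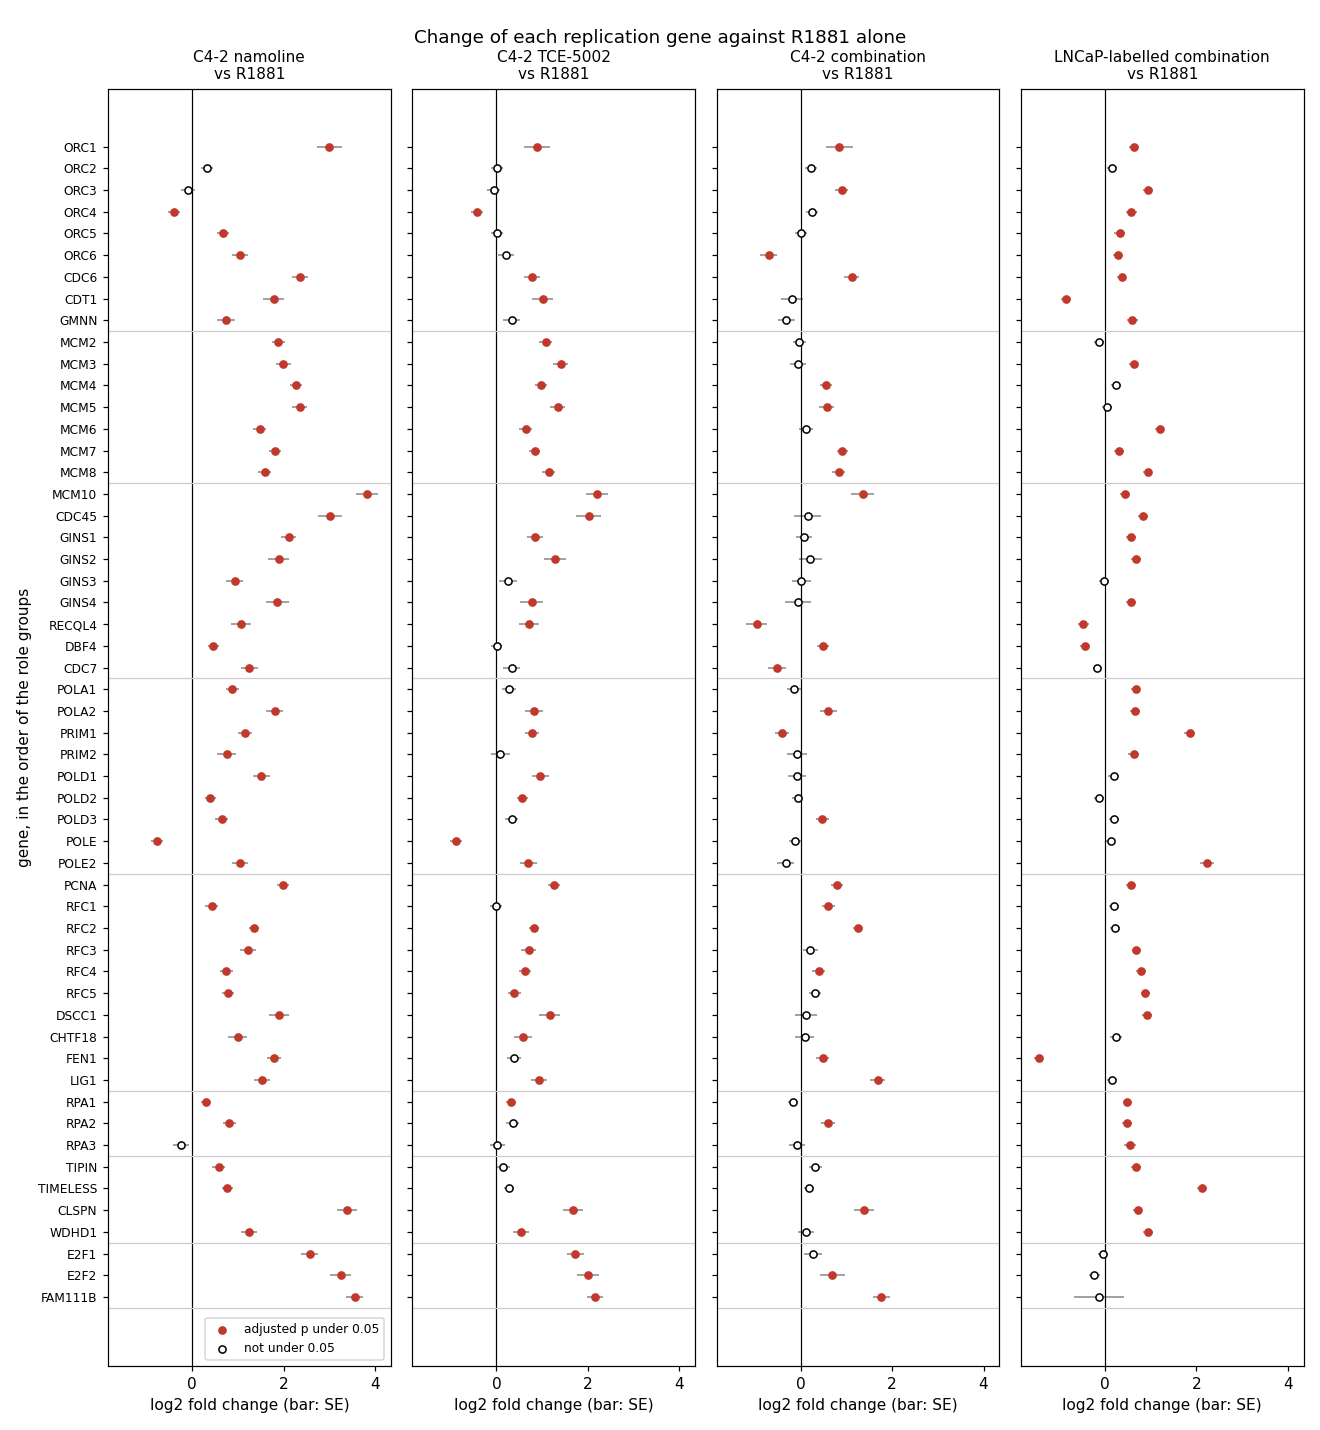
Log2 fold change against R1881 alone for each of the 54 genes (rows, in role order), with bars of 1 SE from the edgeR fit and n = 2 libraries per group; filled points passed adjusted p under 0.05. Filled points to the right numbered 49 with namoline, 35 with TCE-5002, 21 with both inhibitors in C4-2 cells and 33 with both in the LNCaP-labelled cells.

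The combination was then set directly against each inhibitor. Against namoline, 42 of the 54 fell and 3 rose with the combination, where 29.0% of all genes fell and 26.9% rose (edgeR), and the median log2 fold change was -1.16. Against TCE-5002, 28 fell and 7 rose, where 28.7% fell and 26.4% rose, with a median of -0.42. That second result was less steady: 18 fell without replicate 2 of the combination, and the median was -0.19 without replicate 1 of TCE-5002. These comparisons share the combination libraries.

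CDC45, E2F2 and MCM10 fell most from namoline to the combination. CDC45 stood at 30.7 and 41.4 CPM with namoline and 6.70 and 3.13 with the combination (-2.87 ± 0.27, adjusted p = 6.01e-07), so 1 combination library lay below the R1881 pair and the other above it. E2F2, an E2F activator, stood at 14.2 and 19.1 CPM with namoline and 3.01 and 2.69 with the combination (-2.55 ± 0.22, adjusted p = 2.56e-07). MCM10 went to 11.4 and 7.95 CPM (-2.46 ± 0.21, adjusted p = 3.28e-07), still above R1881 alone. From TCE-5002 to the combination, CDC45 (-1.87 ± 0.27), RECQL4 (-1.68 ± 0.22) and MCM3 (-1.47 ± 0.17) fell most. MCM3, a core helicase subunit, stood at 27.1 and 26.7 CPM with R1881 alone, 76.0 and 66.2 with TCE-5002 and 30.9 and 21.4 with the combination.

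The genes that rose from a single inhibitor to the combination were few. ORC3, a subunit of the ORC ring, stood at 11.6 and 12.2 CPM with R1881 alone, 11.1 and 11.3 with namoline, 11.7 and 11.1 with TCE-5002, and 21.9 and 23.1 with the combination. The pairs with a single inhibitor lay by the R1881 pair, and the combination pair stood well above all of them (0.90 ± 0.14 against R1881, adjusted p = 0.000151). ORC4 stood at 76.4 and 75.7 CPM with the combination, above every other C4-2 library (0.64 ± 0.13 against namoline, adjusted p = 0.000902). POLE returned to 134 and 142 CPM (0.64 ± 0.13 against namoline, adjusted p = 0.000968), just under the R1881 pair.

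The interaction term asks whether the change with both inhibitors differs from the sum of the changes with each on the log2 scale. It was negative for 45 of the 54 at adjusted p under 0.05 and positive for 3, where 27.9% of all genes tested were negative and 25.6% positive (edgeR). Its median was -1.82 over the 54 and -0.01 over all genes. CDC45 (-4.89 ± 0.38), MCM10 (-4.67 ± 0.32) and E2F2 (-4.56 ± 0.32) were the most negative. POLE (1.53 ± 0.19), ORC4 (1.07 ± 0.19) and ORC3 (1.05 ± 0.21) were the positive members, and each of these 6 values had an adjusted p of 0.00062 or less. DBF4 (0.02), RFC1 (0.19) and RPA3 (0.13) had values near 0 that did not pass the test.

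**Figure D3:**
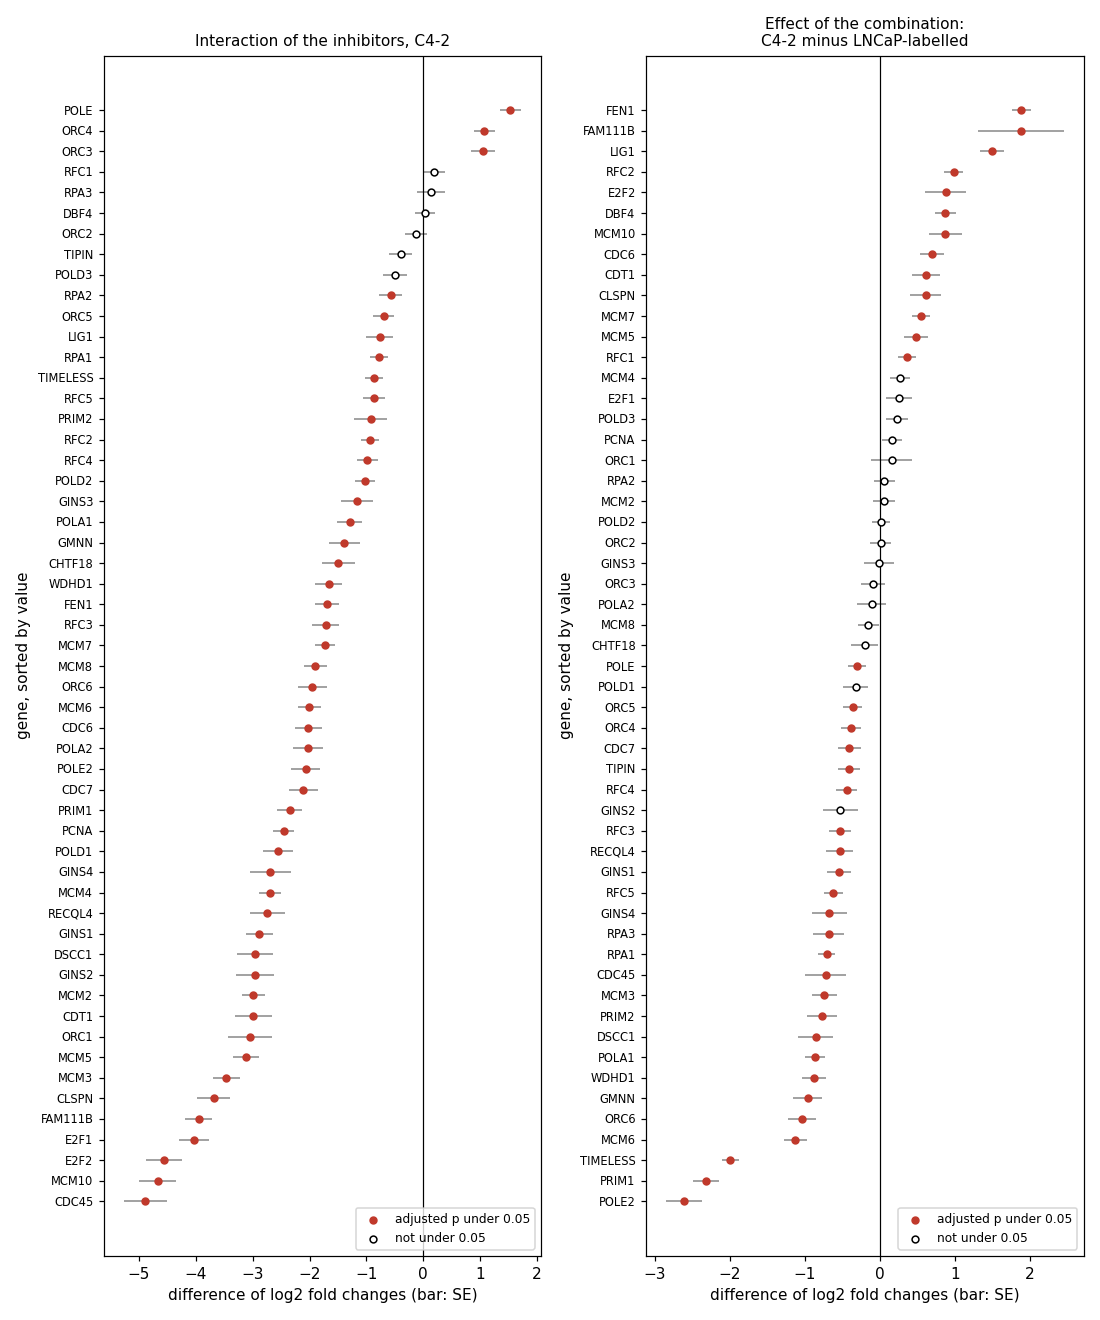
Left, the interaction of namoline and TCE-5002 in C4-2 cells, and right, the effect of the combination in C4-2 minus that in the libraries labelled LNCaP, for each of the 54 genes sorted by value (log2 scale, bars of 1 SE); filled points passed adjusted p under 0.05. On the left 45 filled points lie below 0 and 3 above, from CDC45 at -4.89 to POLE at 1.53, and on the right 25 lie below and 13 above, from POLE2 at -2.61 to FEN1 at 1.88.

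The licensing genes changed in both directions. ORC1, the subunit whose level follows the cell cycle, stood at 4.08 and 3.06 CPM with R1881 alone, 24.3 and 34.3 with namoline, 7.36 and 6.01 with TCE-5002 and 8.63 and 4.45 with the combination. Its rise with namoline was 3.0 ± 0.28, against 0.33 for ORC2, -0.10 for ORC3 and -0.40 for ORC4, so the subunits of 1 complex ran from a fall to an 8.02-fold rise. Its rise with the combination (0.84 ± 0.30, adjusted p = 0.0284) was lost without combination replicate 1 (0.27, adjusted p = 0.512).

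CDC6, the loader that recruits MCM rings, stood at 20.6 and 14.8 CPM with R1881 alone, 79.5 and 105 with namoline, 31.4 and 29.8 with TCE-5002 and 41.1 and 37.3 with the combination. It rose in all 3 comparisons (2.35, 0.78 and 1.11). The combination pair of CDC6 lay above the TCE-5002 pair, but that difference did not pass the edgeR test (0.33 ± 0.16, adjusted p = 0.0987). CDT1, the other loader, stood at 12.2 and 13.8 CPM with R1881 alone, 35.4 and 54.8 with namoline and 12.1 and 11.0 with the combination. Its change with the combination was -0.19 (95% interval -0.67 to 0.28), so unlike CDC6 it showed no detectable rise. GMNN, the geminin inhibitor of CDT1, stood at 18.9 and 18.1 CPM with R1881 alone, 31.7 and 31.0 with namoline and 15.2 and 15.2 with the combination. GMNN rose with namoline (0.74 ± 0.19, adjusted p = 0.00673), and its change with the combination was -0.31 ± 0.19 (adjusted p = 0.19).

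The MCM helicase genes moved as a block with each inhibitor. Summed over 7 genes, they stood at 241 and 244 CPM with R1881 alone, 797 and 1014 with namoline, 495 and 468 with TCE-5002 and 374 and 348 with the combination. MCM2, the ring subunit next to MCM5, stood at 31.8 and 37.1 CPM with R1881 alone, 109 and 148 with namoline, 72.6 and 72.1 with TCE-5002 and 34.6 and 33.8 with the combination. With both inhibitors MCM2 lay inside the range of R1881 alone (-0.03, 95% interval -0.31 to 0.25). The ring genes then split: MCM4 (0.55), MCM5 (0.57) and MCM7 (0.91) passed the test with the combination, and MCM2, MCM3 (-0.06) and MCM6 (0.11) did not. Per kilobase of exon, where genes can be compared, MCM7 was the highest of the 7 in C4-2 cells with R1881 alone (20.5 CPM per kb) and MCM5 the lowest (1.86).

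Among helicase activators, the GINS subunits rose by 0.93 (GINS3) to 2.11 (GINS1) with namoline. With the combination none of them passed the test, and their values ran from -0.06 (GINS4) to 0.21 (GINS2). CDC7 and its activator DBF4 did not move together with the combination, as CDC7 fell (-0.53) and DBF4 rose (0.49 ± 0.12, adjusted p = 0.00445). DBF4 overlaps SLC25A40 and the counting did not use strand, so reads of the pair cannot be told apart where they overlap. The same limit holds for other members, among them GINS2 (with GSE1), RPA3 (UMAD1), RFC4 (EIF4A2), RFC5 (WSB2), CHTF18 (RPUSD1), ORC4 (ACVR2A) and MCM2 (TPRA1). At the polymerases, POLE2 stood at 6.28 and 5.46 CPM with R1881 alone, 11.5 and 13 with namoline, 9.85 and 9.33 with TCE-5002 and 4.54 and 5.01 with the combination. It was higher with each inhibitor and, with both, below the R1881 pair without passing the test (-0.33, 95% interval -0.71 to 0.05).

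PCNA, the sliding clamp and the most abundant member per kilobase in C4-2 cells with namoline (109.9 CPM per kb), stood at 39.6 and 41.2 CPM with R1881 alone, 152 and 172 with namoline, 109 and 83.7 with TCE-5002 and 73.2 and 68.6 with the combination. It rose in all 3 comparisons, by 1.99, 1.26 and 0.79. Of the clamp loader genes, RFC2 rose by 1.35 with namoline and 1.25 with the combination, while DSCC1, of the alternative loader, rose by 1.90 and then stood at 0.12 without passing the test. Of the RPA genes, RPA1 rose by 0.29 with namoline (adjusted p = 0.0486, lost with DESeq2 at 0.0638), RPA2 by 0.81, and RPA3 did not pass the test in any of the 3 comparisons.

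The E2F genes followed the same order of groups as MCM10 and CDC45. E2F1 stood at 10.3 and 8.71 CPM with R1881 alone, 46.8 and 68.3 with namoline, 28.5 and 34.6 with TCE-5002 and 11.9 and 11.5 with the combination. It rose with namoline (2.58 ± 0.19, adjusted p = 1.82e-07) and with TCE-5002 (1.73 ± 0.19, adjusted p = 1.15e-05), and its change with the combination was 0.27 (95% interval -0.12 to 0.65). E2F2 stood at 1.92 and 1.5 CPM with R1881 alone and at 6.89 and 7.08 with TCE-5002. Its rise with the combination (0.69 ± 0.27, adjusted p = 0.0417) was lost with DESeq2 (0.0574) and when any 1 of the 4 libraries compared was left out (0.0622 to 0.211).

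**Figure D4:**
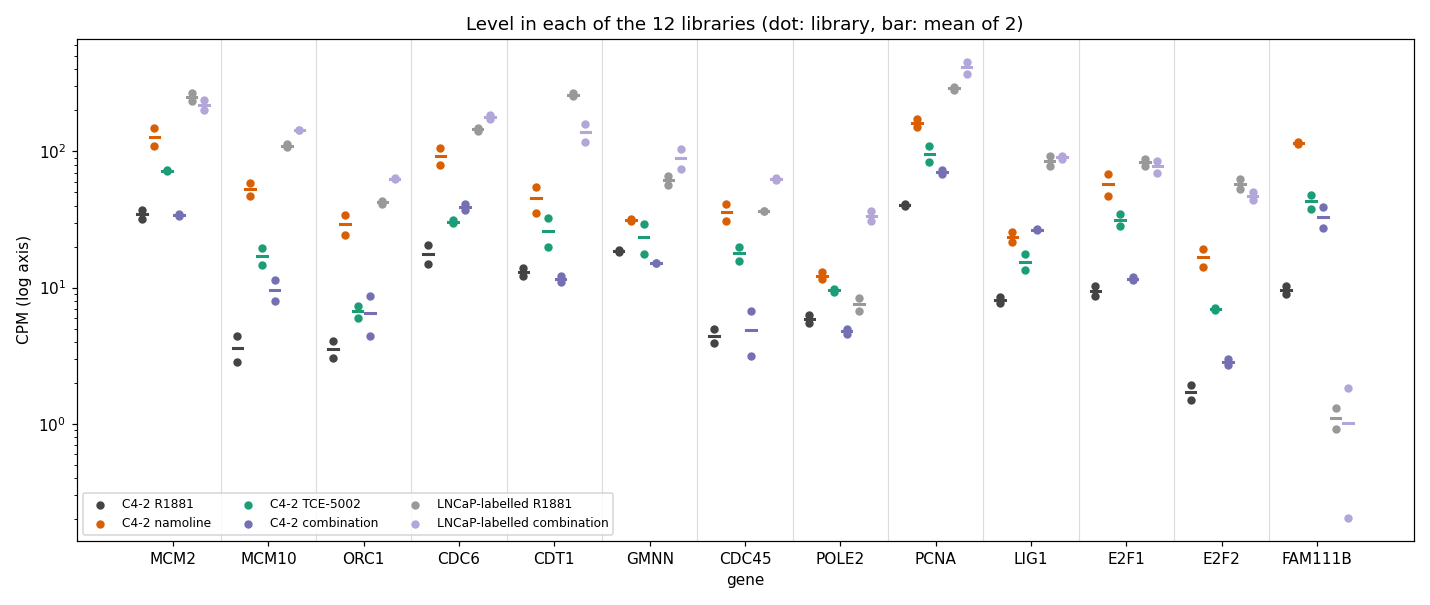
Level (CPM, log axis) of 13 genes that stand for each step of replication, in each of the 12 libraries; each dot is a library and each bar the mean of the 2 libraries of a group. For 11 of the 13 genes, all but CDC6 and LIG1, the means in C4-2 cells descend from namoline through TCE-5002 to the combination. For ORC1 (log2 fold change -0.05) and FAM111B (-0.39), the step from TCE-5002 to the combination did not pass the test and its libraries overlap. FAM111B alone is lower in the libraries labelled LNCaP than in C4-2 cells with R1881 alone.

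The promoter letters were set beside these changes as a description. With namoline the median log2 fold change was 1.68 over the 24 genes with an E2F octamer in a window and 0.79 over the 21 without. With TCE-5002 the medians were 0.83 and 0.39, and with the combination 0.21 and 0.18. Rises with namoline numbered 22 of 24 and 19 of 21, so the groups differed more in size than in the count of calls. With namoline MCM10 rose most, and POLE, with an octamer at -18, fell. The MCM10 window holds none of the octamers searched, but holds TTTGGCGG, so this contrast depends on the last letter of the search.

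Other gene lists were read against the shares of all genes tested, which were 18.7% rising and 16.3% falling with namoline, 19.9% and 16.7% with TCE-5002, and 24.8% and 25.6% with the combination. Of 30 genes of G2/M and mitosis, 5 rose (16.7%) and 6 fell (20%) with namoline, shares near those of all genes (median log2 fold change 0.10). With TCE-5002, 1 of the 30 rose and 28 fell (93.3%, median -1.31), and with the combination 28 fell (median -1.75). Of 45 other replication and S-phase genes (histone chaperones, nucleotide synthesis, cyclins and others), 30 rose (66.7%) and 0 fell with namoline, led by CCNE2 (cyclin E2, 3.17) and DTL (a CDT1-degrading ligase subunit, 2.74). With TCE-5002, 20 rose (44.4%) and 4 fell (8.89%), with CDCA7 (2.31) and DTL (1.73) up and DBF4B (-0.89) and ASF1A (-0.75) down. With the combination, 21 rose (46.7%) and 6 fell (13.3%), with E2F7 (1.74) and CCNE2 (1.47) up and CCNA2 (-1.01) and DBF4B (-0.85) down. Prostate luminal markers also moved, with 6 of 8 rising with namoline, 7 with TCE-5002 and all 8 falling with the combination, and their part in the changes of the replication genes was not tested.

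With R1881 alone, the libraries labelled LNCaP held far more of these transcripts than C4-2. Of the 54, 47 were higher and 5 lower in the LNCaP-labelled libraries, where 39.0% of all genes tested were higher and 37.8% lower (edgeR, 19763 genes), with a median difference of 2.32. The groups did not overlap for any of the 54, with 49 higher and 5 lower, where 44.8% and 43.2% of all genes were so. CLSPN (5.67 and 4.03 CPM in C4-2, 173 and 171 in LNCaP-labelled) differed by 5.09 ± 0.15, E2F2 (53.1 and 62.4 in LNCaP-labelled) by 5.02 ± 0.17, and MCM10 (107 and 114) by 4.86 ± 0.15. FAM111B was the exception in size, at 1.30 and 0.91 CPM (-3.15 ± 0.34). ORC5 (42.9 and 44.6 CPM against 80.6 and 83.2, -0.93 ± 0.09) and ORC4 (37.7 and 43.0, -0.68 ± 0.10) were also lower. Line and lineage markers changed together here and cannot be told apart.

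In LNCaP-labelled cells, joint treatment raised more members than it lowered. Of the 54, 33 rose and 4 fell, where 28.0% of all genes tested rose and 28.2% fell (edgeR, 17565 genes), with a median log2 fold change of 0.48 and 4 rises of at least 2-fold, where 7.44% of all genes rose so far. Without replicate 1 of the combination, whose header differs from its label, 34 rose and 8 fell and the median was 0.52. G2/M genes here rose, 18 of 30 with 4 falling (median 0.46). All 3 RPA genes and all 4 fork protection genes rose.

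POLE2, TIMELESS and PRIM1 rose most. POLE2 went from 8.34 and 6.74 CPM to 30.8 and 36.6 (2.22 ± 0.15, adjusted p = 1.63e-13). TIMELESS, of the fork protection complex, went from 71.5 and 72.5 CPM to 302 and 300.5 (2.12 ± 0.11, adjusted p = 6.16e-17), while its partner TIPIN rose by 0.68 ± 0.11. PRIM1, the catalytic primase subunit, went from 30.7 and 37.8 CPM to 111 and 127 (1.85 ± 0.12, adjusted p = 1.89e-14). The pairs did not overlap in any of the 3. Without replicate 1 of the combination, the log2 fold changes were 2.33 for POLE2, 2.12 for TIMELESS and 1.94 for PRIM1. These genes were picked for a large called change, so the closeness of their combination libraries says nothing on the header of replicate 1. PRIM1 overlaps the far more abundant NACA, and their reads cannot be told apart where they overlap.

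FEN1, CDT1 and RECQL4 fell most. FEN1, the flap endonuclease of lagging-strand processing, went from 310 and 297 CPM to 107 and 105 (-1.45 ± 0.10, adjusted p = 3.79e-13). FEN1 overlaps FADS2, so the same limit on reads where genes overlap holds for it. CDT1 went from 255 and 268 CPM to 160 and 117 (-0.86 ± 0.12, adjusted p = 1.63e-07), and RECQL4 from 164 and 133 to 114 and 90.3 (-0.48 ± 0.12, adjusted p = 0.000733). Without replicate 1 of the combination, the log2 fold changes were -1.47 for FEN1, -1.1 for CDT1 and -0.66 for RECQL4. With an offset for GC content the RECQL4 value was 0.17, of opposite sign (adjusted p = 0.0915), and the call was also lost without R1881 replicate 1 (0.0593).

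Transcript GC content moved with the result in these libraries. Of the 19 members with at least 50% GC, 6 rose and 3 fell, and of the 35 below 50%, 27 rose and 1 fell. With the GC offset, 13 of the 19 rose and 2 fell, and 27 of the 35 rose and 2 fell. E2F1, with 62.5% GC, stood at 78.7 and 87.7 CPM with R1881 alone and at 85.4 and 69.9 with the combination (-0.04, 95% interval -0.26 to 0.17), and with the offset it rose by 0.43 (adjusted p = 0.000194). The part of GC content in the result was not tested.

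The other genes followed in the libraries labelled LNCaP showed smaller changes. ORC1 went from 41.4 and 43.4 CPM to 63.5 and 62.6 (0.63 ± 0.11, adjusted p = 1.27e-05), CDC6 from 141 and 149 to 184 and 174 (0.36 ± 0.10, adjusted p = 0.00315, lost without R1881 replicate 1 at 0.0674), and GMNN from 57.0 and 66.5 to 74.7 and 105 (0.60 ± 0.12, adjusted p = 0.00011). CDC45 went from 36.6 and 36.5 CPM to 61.4 and 63.6 (0.83 ± 0.11, adjusted p = 1.63e-07), MCM10 to 143 and 143 (0.43 ± 0.10, adjusted p = 0.000518) and PCNA from 284 and 296 to 373 and 456 (0.57 ± 0.11, adjusted p = 4.95e-05). For these 6 genes the combination pair lay above the R1881 pair. Without replicate 1 of the combination, their log2 fold changes ran from 0.315 (CDC6) to 0.853 (CDC45). MCM2 (234 and 269 to 238 and 203 CPM), LIG1 (92.5 and 78.3 to 88.3 and 93.2) and E2F2 (53.1 and 62.4 to 50.4 and 43.7) did not pass the test. FAM111B stood at 1.82 and 0.20 CPM with the combination, a spread too wide to place it (-0.13 ± 0.55). Without replicate 1, MCM2 (-0.26), E2F2 (-0.35), POLD2 (-0.26) and FAM111B (-2.36) also counted as falling.

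The effect of the combination was then compared between the lines by an interaction in 1 fit of 8 libraries. It was more positive in C4-2 for 13 of the 54 and more negative for 25, where 21.7% and 25.9% of all genes were so (edgeR), with a median of -0.25 over the 54 and -0.10 over all genes. The first count was 7 without replicate 1 of the C4-2 combination and the second 15 without its replicate 2. POLE2 (-2.61 ± 0.24), PRIM1 (-2.32 ± 0.18) and TIMELESS (-1.99 ± 0.12) were the most negative, and FEN1 (1.88 ± 0.12), FAM111B (1.88 ± 0.57) and LIG1 (1.49 ± 0.16) the most positive. FEN1 rose in C4-2 (44.3 and 41.7 CPM against 30.8 and 29.8, 0.48 ± 0.15, adjusted p = 0.0133, lost without R1881 replicate 1 at 0.0609, R1881 replicate 2 at 0.0889 or combination replicate 1 at 0.0935) and fell in the LNCaP-labelled libraries. The FAM111B difference rests on LNCaP-labelled libraries of at most 1.82 CPM, and was lost with DESeq2 (adjusted p = 0.248), without replicate 2 of the LNCaP combination (0.93, adjusted p = 0.0674) and without replicate 1 of LNCaP with R1881 alone (1.70, adjusted p = 0.0617). Without replicate 1 of the LNCaP combination it was 4.04. For MCM2 no difference between the lines was detected (0.05, 95% interval -0.23 to 0.34).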

How the data were processed

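RNA-seq of 12 libraries in 6 groups of 2 was taken from the deposited gene counts (60675 Ensembl genes per file). The authors trimmed reads (Trim Galore, cutadapt), aligned them to GRCh38 with STAR and, per the file headers, counted fragments with featureCounts 1.5.0-p1 on Ensembl 83 in paired mode without strand, so the deposited values are raw counts. Symbols came from the gene table supplied with the reference, and 54 of 54 members matched. Total counts ran from 14791602 to 20690819. Here counts were filtered (filterByExpr), scaled by TMM and tested with edgeR 4.0.16 (quasi-likelihood F test, R 4.3.3), Benjamini-Hochberg adjusted over all genes tested. A gene was called at adjusted p under 0.05, and as a second rule also at an absolute log2 fold change of 1. The C4-2 comparisons used the 8 C4-2 libraries, the LNCaP comparison 4 libraries, and the comparisons between lines the 8 libraries with R1881 alone or the combination. Values are TMM-scaled CPM. SE is the absolute log2 fold change divided by the square root of the F statistic of the edgeR test, and 95% intervals are 1.96 SE. The multiplier of 1.96 takes no account of the small number of libraries, so these intervals are approximate and on the narrow side. CPM per kb uses the exon length in the files.

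The members and lists were chosen with earlier results of these data known. Named members were 13 standing for each step, plus, in each comparison, the 3 rising and 3 falling members with the largest absolute log2 fold change among those called. Other replication genes were named by the 2 largest changes each way. GC content is that of the longest transcript in GENCODE 29 (54 of 54 members). Alternatives were RLE scaling, no filter, DESeq2 1.42.0, only the 4 libraries compared, GC offsets, a replicate block, and leaving out each library. The fit was tested on simulated data.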

Additional observations from a re-analysis of the deposited data

Results flagged for a closer look

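The effect of the combination differed between C4-2 cells and the libraries labelled LNCaP, by a test of the difference itself (the interaction in edgeR), for 38 of the 54 replication genes: 13 were more positive in C4-2 and 25 more negative, where 21.7% and 25.9% of all genes tested were so, so the first count was near the share of all genes (24.1% of the 54). Without replicate 1 of the C4-2 combination 7 were more positive, and without its replicate 2, 15 were more negative. The largest differences on the log2 scale were 1.88 for FEN1, 1.88 for FAM111B, 1.49 for LIG1, -2.61 for POLE2, -2.32 for PRIM1 and -1.99 for TIMELESS. The FAM111B value rests on LNCaP-labelled libraries of at most 1.82 CPM, and its call was lost with DESeq2 (adjusted p = 0.248), without replicate 2 of the LNCaP combination (0.0674) and without replicate 1 of LNCaP with R1881 alone (0.0617). Groups of 2 libraries allow no test for a single library that stands apart.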

How the results depend on the processing

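The changes of the named members kept their direction and side of the threshold in 144 of 146 cases with a replicate block, 146 with RLE scaling, 144 without a filter on low counts, 142 with DESeq2 and 137 with GC offsets. In LNCaP-labelled cells GC offsets turned the sign of E2F1 (0.431, and 0.434 with the block) and RECQL4 (0.175, and 0.179 with the block) and gave a median of 0.441 over the 54, or 0.439 with the block; the cause was not tested. With RLE scaling and with DESeq2 the median difference between the lines in the effect of the combination was -0.192, and that of R1881 alone was 2.377 in each. With TCE-5002, 1 member fell in a fit of only the 4 libraries compared, and with the combination in C4-2 cells 2 fell with DESeq2. Replicate numbers share nothing in the labels but a number, and the deviations of C4-2 libraries with the same number correlated from -0.022 to 0.41 (0.06 in LNCaP-labelled cells). With the replicate block, 50, 38 and 22 members rose with namoline, TCE-5002 and the combination, and 32 with the combination in LNCaP-labelled cells.

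Leaving out 1 library gave these ranges over the 54. With namoline 1 to 2 fell, with medians of 1.142 to 1.373. With TCE-5002 the medians were 0.585 to 0.725, and fewer members were called as rising without R1881 replicate 2 than in the full fit. With the combination 13 to 25 rose and 1 to 6 fell, with medians of 0.164 to 0.30. Against namoline the combination had medians of -1.246 to -1.034, and against TCE-5002 18 to 30 fell, with medians of -0.531 to -0.187. The interaction had medians of -2.033 to -1.685. In LNCaP-labelled cells 3 to 8 fell, with medians of 0.411 to 0.521. Between the lines the effect was more positive in C4-2 for 7 to 13 and more negative for 15 to 24, with medians of -0.334 to -0.13, and R1881 alone had medians of 2.218 to 2.375. With 2 libraries per group, small changes in scarce genes such as FAM111B in LNCaP-labelled cells, ORC1 and E2F2 are the least certain.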
